A study of Mus musculus with 14 samples.

Results

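Genes of mouse chromosomes 5 and 13 were described as 2 whole-chromosome groups in small-intestinal tumor organoids that carried a short hairpin RNA against Kmt5c, the gene of the histone methyltransferase Suv4-20h2. Members were all genes that GENCODE M21 places on these chromosomes in GRCm38 and that reached a mean level of at least 5 CPM (count divided by the library total and scaled to a common total) over the 8 libraries of set 2. This gave 1079 members, 715 on chromosome 5 and 364 on chromosome 13, of 10457 genes at that level and 17490 genes listed. Both chromosomes were chosen by the log2 fold changes of their genes, which sat higher with hairpin 2 than with control 2. The set 2 values below are therefore a description, and only set 1 is separate from the choice. Just under the level limit lay P2rx2 on chromosome 5 (4.996 CPM, log2 fold change -0.89) and Zfp712 on chromosome 13 (4.848 CPM, 0.24). Just above it lay Gm45495 (5.092 CPM, 0.21) and Zfp429 (5.163 CPM, 0.16).

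All 14 libraries came from the organoid model labelled APT, whose abbreviation the labels do not spell out, and every group received 0.5 µg/ml doxycycline for 4 days, which switches the hairpin on. Hairpin 1 was aimed at exon 4 of Suv4-20h2 and is labelled clone #1 (3 libraries), with its own control hairpin, control 1 (3 libraries), and these form set 1. Hairpin 2 was aimed at exon 9 and is labelled clone #2 (4 libraries), with control 2 (4 libraries), and these form set 2. A hairpin, its clone and its set cannot be told apart, and nothing in the labels says that libraries of a group came from separate cultures, so error estimates measure the spread between libraries only.

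Suv4-20h2 adds methyl groups to histone H4 in compact, repeat-rich chromatin, which in mouse cells lies chiefly around the centromeres. Mouse chromosomes carry the centromere at one end, so the first genes listed on a chromosome are those nearest to it. A median over many genes of a chromosome moves little when single genes change. Only RNA was measured in these libraries, and chromosome number was not.

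Kmt5c was at a mean of 124 CPM in control 2 and 108 CPM in hairpin 2 (log2 fold change -0.20, adjusted p = 0.098, edgeR's quasi-likelihood test) and at 71.8 and 58.0 CPM in set 1 (-0.31, adjusted p = 0.8). Neither fall passed the test. Library totals ran from 9272134 to 26284079 counts. The summed level of 4 epithelial markers was 2700 to 2840 CPM in control 2 and 2110 to 2280 CPM in hairpin 2, with no overlap. The 2 listed of 4 fibroblast markers summed to 0.764 to 2.41 CPM in control 2 and to at most 0.216 CPM in hairpin 2, and the leukocyte markers to at most 0.182 CPM in either group. In bulk RNA, fewer cells of a type and less RNA per cell cannot be told apart. Hairpin 1 replicate 1 stood apart from the other set 1 libraries, with median levels 0.675 (log2) higher on chromosome 12 and 0.700 lower on chromosome 14 than the controls.

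The promoters of 4 genes are printed as examples of the CpG content of genes that fell and of genes that rose. Slc5a1 on chromosome 5 encodes the sodium-glucose cotransporter of the enterocyte brush border, and Cdhr2 on chromosome 13 a cadherin that links brush-border microvilli. Both fell with hairpin 2. Hnrnpa0, an RNA-binding protein gene, and Rala, a small GTPase gene that acts in vesicle delivery, lie on chromosome 13 and rose with hairpin 2. Each sequence runs from 250 bases before to 50 bases after the gene start, 5′ to 3′ on the gene's strand, from RefSeq on GRCm38.p6, with every CG dinucleotide in capitals. They lie at chr5:33103969-33104268 (plus strand), chr13:54701213-54701512 (plus), chr13:58128507-58128806 (minus) and chr13:17944168-17944467 (minus), in the order printed.
Slc5a1: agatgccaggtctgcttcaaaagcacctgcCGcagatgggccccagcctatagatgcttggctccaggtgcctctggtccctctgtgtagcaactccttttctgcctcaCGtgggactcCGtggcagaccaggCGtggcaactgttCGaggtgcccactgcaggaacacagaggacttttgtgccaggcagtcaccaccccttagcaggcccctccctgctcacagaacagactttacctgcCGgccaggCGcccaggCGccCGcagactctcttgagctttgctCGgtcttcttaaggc
Cdhr2: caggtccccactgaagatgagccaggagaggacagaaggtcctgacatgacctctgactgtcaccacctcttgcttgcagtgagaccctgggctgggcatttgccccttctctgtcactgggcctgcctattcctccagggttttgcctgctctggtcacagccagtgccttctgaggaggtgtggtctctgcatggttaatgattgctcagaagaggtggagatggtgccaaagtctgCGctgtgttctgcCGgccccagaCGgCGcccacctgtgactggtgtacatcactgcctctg
Hnrnpa0: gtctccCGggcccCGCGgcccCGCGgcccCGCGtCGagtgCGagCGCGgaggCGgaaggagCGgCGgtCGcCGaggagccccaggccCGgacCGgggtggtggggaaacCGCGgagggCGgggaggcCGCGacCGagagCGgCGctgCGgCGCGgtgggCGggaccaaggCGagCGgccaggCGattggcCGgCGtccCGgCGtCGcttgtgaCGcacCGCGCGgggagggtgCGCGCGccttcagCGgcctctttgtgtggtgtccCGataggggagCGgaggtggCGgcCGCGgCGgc
Rala: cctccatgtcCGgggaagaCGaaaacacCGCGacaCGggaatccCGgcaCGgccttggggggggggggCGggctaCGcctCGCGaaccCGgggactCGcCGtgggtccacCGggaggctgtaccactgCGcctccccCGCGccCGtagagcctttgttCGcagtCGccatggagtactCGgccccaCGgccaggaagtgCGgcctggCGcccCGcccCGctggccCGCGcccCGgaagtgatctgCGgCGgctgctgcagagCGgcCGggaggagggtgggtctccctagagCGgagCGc
The Slc5a1 window holds 10 CG dinucleotides and the Cdhr2 window 4, against 52 for Hnrnpa0 and 36 for Rala. The observed count over that expected from base content was 0.37, 0.16, 1.14 and 0.89, in the same order. These genes were picked, and others went the other way. Cds1 fell with a window of 46 CG dinucleotides (0.99), and Ppargc1a rose with a window of 5 (0.28).

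With hairpin 2, members on chromosome 5 stood about 1.09-fold and those on chromosome 13 about 1.14-fold higher than genes of the remaining autosomes, in each of the 4 hairpin libraries. The measure was, per library, the median over members of log2 CPM minus the gene's control mean, less the same median over 9073 genes of the remaining autosomes. On chromosome 5 it was 0.121, 0.126, 0.118 and 0.132 in hairpin 2 replicates 1 to 4, and between -0.006 and 0.010 in the control 2 libraries. On chromosome 13 it was 0.185, 0.191, 0.203 and 0.190 with hairpin 2, and -0.025 to 0.032 with control 2. The groups did not overlap on either chromosome, and the 4 hairpin libraries lay close together. The means were 0.003 ± 0.007 against 0.124 ± 0.006 on chromosome 5 and 0.003 ± 0.024 against 0.192 ± 0.008 on chromosome 13 (SD, n = 4 per group). The same difference over the 17 remaining autosomes ran from -0.039 to 0.134. The highest was chromosome 12, above the 0.122 of chromosome 5. Without chromosome 12 the highest was 0.057, on chromosome 4. Control and hairpin libraries did not overlap on 5 of these 17, with hairpin 2 higher on 2.

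**Figure D1:**
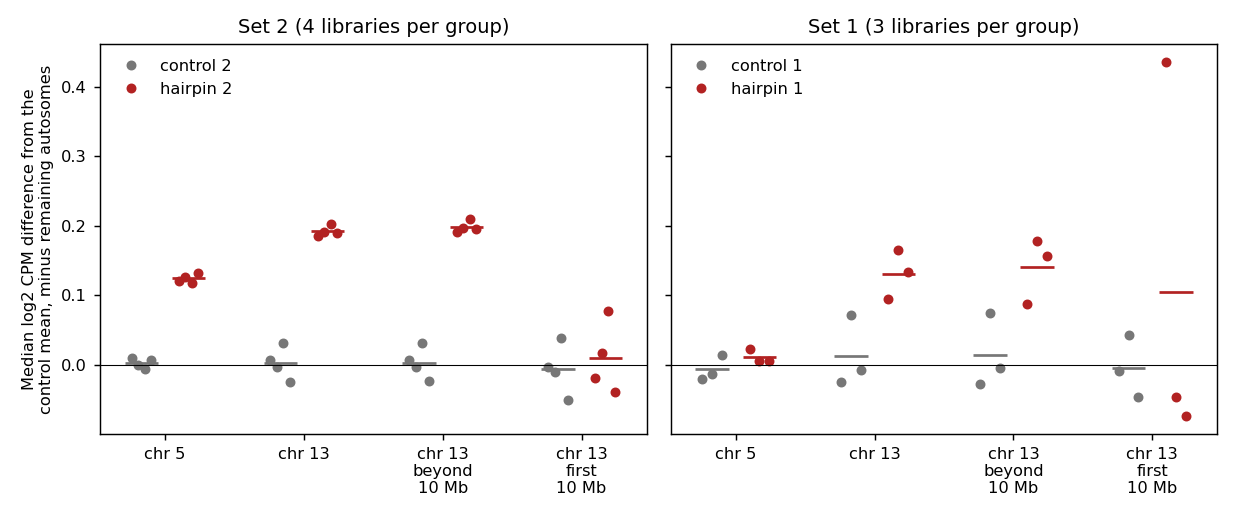
Median log2 difference of each library from the control mean, less that of the remaining autosomes (vertical axis), by region (horizontal axis), for set 2 on the left and set 1 on the right. Points are libraries (grey control, red hairpin) and bars are group means. The 4 hairpin 2 libraries sit together above the controls on chromosomes 5 and 13, but among them over the first 10 Mb of chromosome 13, and hairpin 1 lies among its controls on chromosome 5.

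The whole distribution of members was displaced rather than a tail of it. In the fit of hairpin 2 against control 2, the median log2 fold change was 0.121 on chromosome 5, 0.195 on chromosome 13 and 0.001 on the remaining autosomes. The lower and upper quartiles were 0.046 and 0.202 on chromosome 5, 0.089 and 0.276 on chromosome 13, and -0.094 and 0.095 on the remaining autosomes. The width between the quartiles was thus 0.157, 0.187 and 0.188, and the members were spread no more widely around their median than other genes. Of the members, 597 on chromosome 5 (83.5%) and 322 on chromosome 13 (88.5%) had a fold change above 0, against 50.4% of the remaining autosomes. Among the latter, chromosome 12 was displaced about as far as chromosome 5. Its median was 0.134, with 328 of 381 genes (86.1%) above 0 and 29 called higher. Within 0.1 of their own chromosome's median lay 420 members on chromosome 5 (58.7%) and 200 on chromosome 13 (54.9%). The matching share of the remaining autosomes was 52.5%.

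For a single gene the displacement of chromosome 5 (0.120) was close to the error, the median standard error of a log2 fold change there being 0.081. On chromosome 13 the displacement was further above the error (0.193 against 0.085). Of the 1079 members, 101 were called higher (adjusted p below 0.05, edgeR's quasi-likelihood test, Benjamini-Hochberg over 14126 genes), 45 on chromosome 5 and 56 on chromosome 13, beside 2.04% of all genes tested. Called lower were 14, with 11 on chromosome 5 and 3 on chromosome 13, beside 4.01% of all genes tested. Together these 115 calls stand beside 6.05% of all genes tested. With the replicate number as a block, 447 members were called, 416 higher and 31 lower, beside 20.4% of all genes (10.2% higher and 10.1% lower). Leaving out 1 library moved the 115 calls to 36 to 58 for control 2 replicates 1 to 3 and hairpin 2 replicates 1 to 3, to 70 without control 2 replicate 4 and to 210 without hairpin 2 replicate 4. Shares over all genes are not given here for these fits with 1 library left out. In them the displacement of the medians stayed between 0.118 and 0.127 on chromosome 5 and between 0.189 and 0.197 on chromosome 13. Counted by pairs of equal replicate number, 597 members (55.3%) were higher with hairpin 2 in all 4 pairs. This stands beside 24.2% of all 10457 genes at this level and 55.6% of the 381 genes of chromosome 12. Higher in 0 pairs were 54 members, beside 2001 of the 9073 genes of the remaining autosomes. Hairpin 2 lay wholly above control 2 for 302 members, beside 8.25% of these genes, and wholly below for 21, beside 7.94%.

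**Figure D2:**
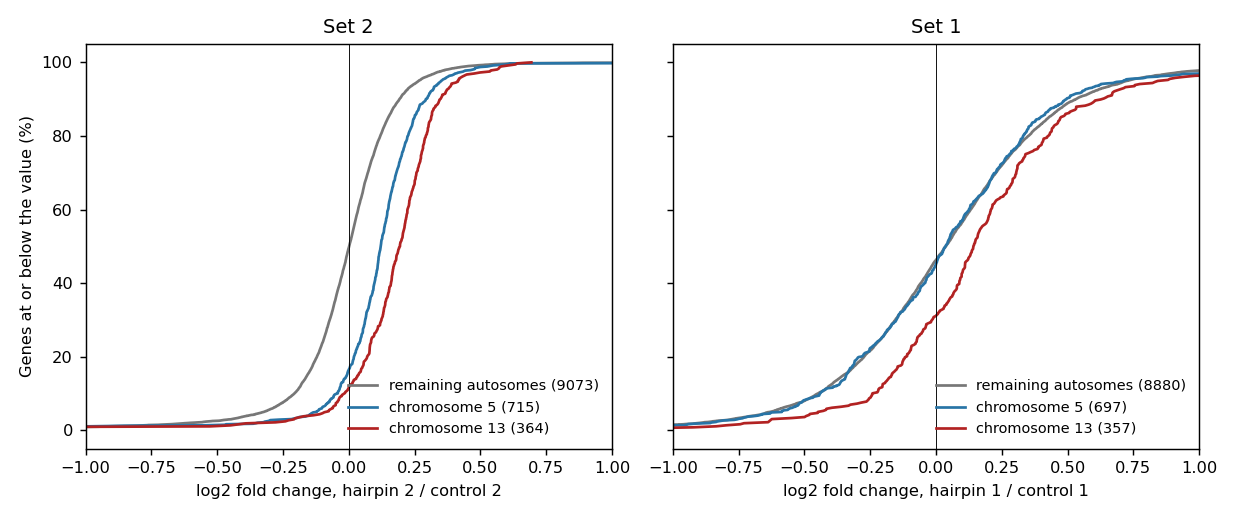
Cumulative share of genes (vertical axis, percent) at or below each log2 fold change (horizontal axis, drawn from -1 to 1), for hairpin 2 on the left and hairpin 1 on the right. The chromosome 5 and chromosome 13 curves lie to the right of the remaining autosomes along their length with hairpin 2 (medians 0.121 and 0.195 against 0.001), while with hairpin 1 the chromosome 5 curve follows the remaining autosomes.

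Along chromosome 5 the elevation was present from end to end. All 16 windows of 10 Mb had a median above that of the remaining autosomes, and the 11 windows with at least 20 members ran from 0.092 to 0.167. The lowest of these lay at 70 to 80 Mb (34 members) and the highest at 100 to 110 Mb (51 members). The most gene-dense windows were close to the chromosome's own value, with 0.094 at 130 to 140 Mb (101 members) and 0.125 at 120 to 130 Mb (94 members). On the remaining autosomes 165 windows with at least 20 genes ran from -0.096 to 0.295 with a median of -0.005, and 20 were above 0.05, of which 8 lay on chromosome 12 and 6 on chromosome 4.

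Along chromosome 13 the elevation began after the first 10 Mb. The 9 windows with at least 20 members ran from 0.164 to 0.227, and the window from 10 to 20 Mb, with 17 members of which 17 were above 0, stood at 0.211. The window from 0 to 10 Mb, also with 17 members, stood at 0.009 with 9 above 0. Per library, these 17 genes gave -0.006 ± 0.036 in control 2 and 0.009 ± 0.051 in hairpin 2 (SD, n = 4 each), and the groups overlapped. Over the 347 members beyond 10 Mb the values were 0.003 ± 0.023 and 0.198 ± 0.008, with no overlap. The window size belonged to the rule, but this stretch was singled out after its values were seen, and no test was made of it.

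**Figure D3:**
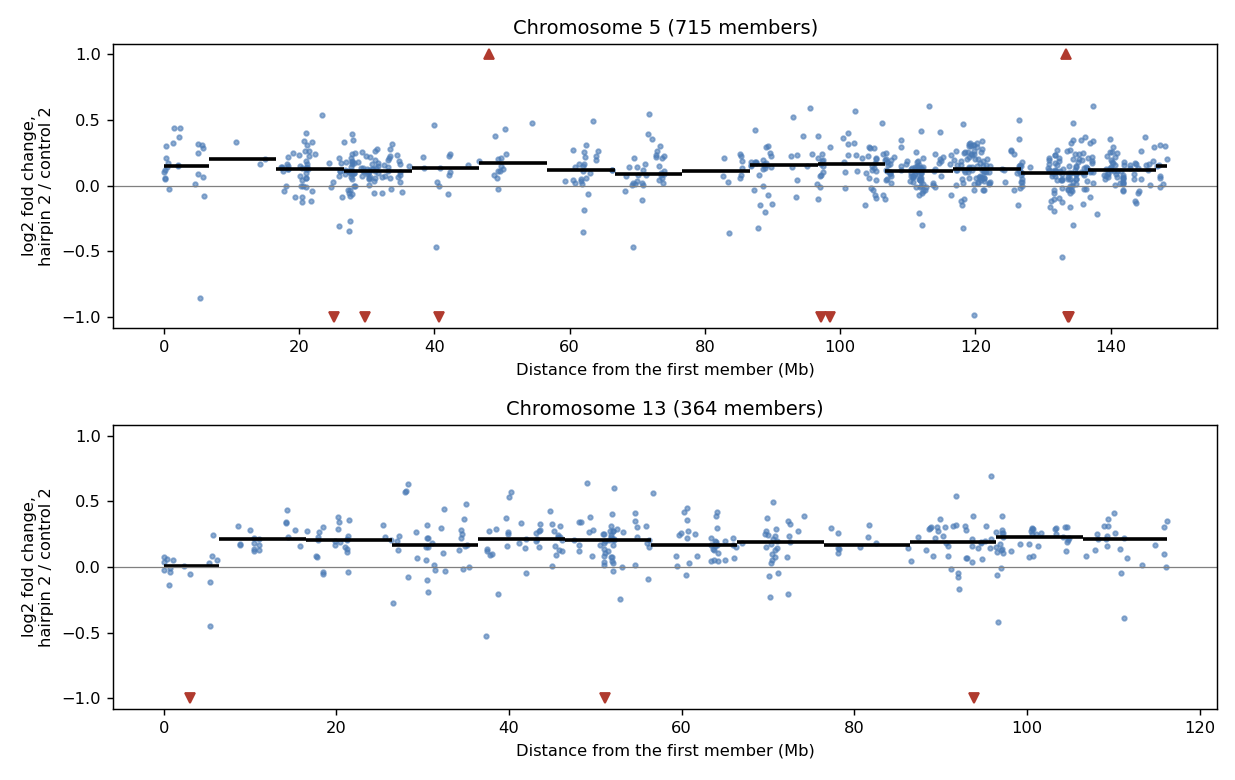
Log2 fold change of each member with hairpin 2 against control 2 (vertical axis, limited to -1 to 1, values beyond drawn as red triangles) by distance from the chromosome's first member in Mb (horizontal axis). Black bars are medians of 10 Mb windows of genome position, and they are at 0.093 or more along chromosome 5 and at 0.165 or more along chromosome 13 after its first window, which is at 0.011.

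The 17 members of the first stretch of chromosome 13 start between 3538063 and 9684833. Gdi2, a regulator that extracts Rab GTPases from membranes, was at 395, 400, 399 and 404 CPM in control 2 and at 399, 400, 382 and 395 CPM in hairpin 2. These values overlap, and the log2 fold change was -0.02 ± 0.05 (SE). Larp4b, an RNA-binding protein gene, was at 244, 229, 250 and 224 CPM in control 2 and at 249, 239, 268 and 248 CPM in hairpin 2 (0.08 ± 0.06), and Zmynd11, a reader of histone marks, gave 0.05 ± 0.07. Both pairs of groups overlapped. Of the 17, 13 lay within 0.13 of 0, among them Net1 (0.06), Klf6 (0.01), Wdr37 (0.03) and Pitrm1 (-0.06). Outside that band were Dip2c (0.24), Pfkp (-1.89), Idi1 (-0.45) and Akr1c13 (-0.134). The counts of Akr1c13 and of the aldo-keto reductase genes next to it, Akr1c12 (-0.04) and Akr1c19 (-0.01), are uncertain because of their close similarity.

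Beyond this stretch the next members start at 12182712. They are Mtr, the gene of methionine synthase (0.32 ± 0.16), and Heatr1, a ribosome biogenesis factor (0.17 ± 0.06). Heatr1 was at 59.4, 62.2, 63.5 and 57.9 CPM in control 2 and at 63.0, 69.4, 70.3 and 70.7 CPM in hairpin 2, so that only the lowest hairpin library lay within the control range. Of the 347 members beyond 10 Mb, 313 were above 0 and 249 were more than 0.13 above it, with quartiles of 0.115 and 0.280. The quartiles of the first 17 were -0.057 and 0.055.

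The elevation was alike at every level of expression. Genes were divided into 4 classes of equal size by mean CPM (bounds 5, 21.7, 49.1, 105 and 4840 CPM). From the lowest to the highest class, the median log2 fold change of members was 0.128, 0.099, 0.124 and 0.122 on chromosome 5. On chromosome 13 it was 0.168, 0.215, 0.188 and 0.195, and on the remaining autosomes it stayed between -0.010 and 0.010. In 4 such classes of the GC content of the transcripts, from low to high, the medians were 0.151, 0.122, 0.110 and 0.107 on chromosome 5 and 0.191, 0.195, 0.181 and 0.236 on chromosome 13. The remaining autosomes gave 0.031, 0.001, -0.016 and -0.011. The 35 members that are not protein coding had lower medians, 0.044 over 29 on chromosome 5 and 0.104 over 6 on chromosome 13, against 0.122 and 0.195 for the coding members.

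To ask which members departed from their own chromosome, the fit was repeated with each library's chromosome median added to the offsets, so that a fold change is read against the chromosome and not against all genes. Of the 1079 members, 6 were called above and 26 below their own chromosome, beside 0.963% and 3.77% of all genes tested in the same fit (4.74% in either direction). Of the 101 members called higher against all genes, 95 were no longer called (42 on chromosome 5 and 53 on chromosome 13). A call that is missed does not show that a gene equals its chromosome. With the replicate block, 156 were called, 65 above and 91 below, beside 16.4% of all genes (6.56% above and 9.85% below). Leaving out 1 library moved the 32 calls to 17 without control 2 replicate 2 and 21 without control 2 replicate 3. They were 18 without hairpin 2 replicate 1, 21 without hairpin 2 replicate 2 and 50 without hairpin 2 replicate 4. Shares over all genes are not given here for these fits.

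Of the 95 members called higher against all genes and not against their own chromosome, some lay close to the chromosome's median and others well above it. Map3k1, a kinase gene of stress signalling, was at 133, 130, 142 and 135 CPM in control 2 and at 157, 161, 162 and 149 CPM in hairpin 2, with no overlap. It gave 0.22 ± 0.05 against all genes and 0.03 ± 0.05 against the rest of chromosome 13. Rala was at 107, 100, 103 and 102 CPM in control 2 and at 134, 125, 146 and 150 CPM in hairpin 2. Hnrnpa0 was at 505, 470, 450 and 437 CPM in control 2 and at 610, 588, 691 and 593 CPM in hairpin 2. Every hairpin library was above every control library for both. The log2 fold changes were 0.43 ± 0.07 for Rala and 0.42 ± 0.07 for Hnrnpa0 against all genes, both called higher. Against the rest of chromosome 13 they were 0.24 ± 0.06 and 0.23 ± 0.07, larger than their errors although neither was called.

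On chromosome 5, Rac1, a GTPase that drives actin assembly at the cell edge, was at 349, 341, 344 and 312 CPM in control 2 and at 394, 385, 439 and 392 CPM in hairpin 2. Srsf9, a splicing factor gene, was at 95.6, 96.5, 90.2 and 81.8 CPM in control 2 and at 114, 112, 137 and 123 CPM in hairpin 2. Tbx3, a T-box transcription factor gene, was at 1090, 1040, 1030 and 970 CPM in control 2 and at 1270, 1230, 1200 and 1150 CPM in hairpin 2. None of these groups overlapped. The fold changes were 0.26 ± 0.06 for Rac1, 0.42 ± 0.08 for Srsf9 and 0.23 ± 0.06 for Tbx3, all called higher against all genes. Against the rest of chromosome 5 they were 0.14 ± 0.06, 0.29 ± 0.08 and 0.11 ± 0.06, and none was called.

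Fold changes of the most abundant members were not all alike. Actb, the gene of cytoplasmic actin, was at 2160, 2120, 2070 and 2170 CPM in control 2 and at 2290, 2520, 2340 and 1920 CPM in hairpin 2 (0.09 ± 0.08), with overlap. Rplp0, a ribosomal stalk protein gene, ran from 1380 to 1620 CPM in control 2 and from 1400 to 1530 CPM in hairpin 2 (-0.04 ± 0.06). On chromosome 13, Hmgcs1, a gene of sterol synthesis, was at 0.00, and Sox4, a transcription factor gene of progenitor cells, at 0.32 ± 0.15 with overlapping groups. None of these 4 was called without the replicate block, and with it Sox4, which was higher in all 4 pairs, was called higher (0.32).

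By function, 9 of the 16 gene lists with members had a median above 0.1, and the other 7 lay nearer to 0 or below it. The lists were written with earlier results of these data known, and their medians stand beside 0.121 and 0.195 for all members of each chromosome. Their counts called with the block, here and below, stand beside 416 higher and 31 lower of all 1079 members. Over all genes the block called 10.2% higher and 10.1% lower. The counts are a description of the lists and were not tested against these shares. All 14 chromatin regulators were above 0, with a median of 0.202. Among them Setd1b (0.27), Nsd1 (0.27) and Bcl7a (0.20) were called higher, and 0 were called lower. With the block 9 of the 14 were called higher. Setd1b and Nsd1 encode histone methyltransferases, and Bcl7a a subunit of the SWI/SNF remodelling complex. Kmt5a, which encodes the enzyme that places the first methyl group on the histone residue that Suv4-20h2 methylates further, gave 0.15 ± 0.07 and was not called. Nsd2, another histone methyltransferase gene, was at 257, 278, 264 and 244 CPM in control 2 and at 290, 305, 300 and 318 CPM in hairpin 2, with no overlap (0.22 ± 0.06), and was called with the block only.

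Of 30 zinc finger genes, 29 were above 0 with a median of 0.192, and Zfp131 (0.35) and Zfp316 (0.35) were called higher, or 11 with the block. Of 19 genes of DNA replication and repair, 18 were above 0 with a median of 0.134, among them the mismatch repair gene Msh3 (0.29), and of 11 cell cycle regulators 10 were above 0 with a median of 0.155, among them the mitotic cyclin gene Ccnb1 (0.23). None of the genes of these last lists was called without the block, and with it 5 of the 19, Msh3 among them, and 6 of the 11, Ccnb1 among them, were called higher. The 12 respiratory chain genes had a median of 0.135, with 10 above 0, 0 called and 1 called higher with the block. The 4 Wnt and hedgehog receptor genes, Fzd1, Fzd10, Ptch1 and Ror2, were at 0.32, 0.26, 0.26 and 0.09. None was called without the block, and with it all but Ror2 were called higher. The 3 cluster 1 histone genes had a median of 0.287, with 0 called and 2 called higher with the block. The 4 CXC chemokine genes were all above 0 with a median of 0.238, and Cxcl15 (0.42) was called higher.

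Other lists lay near or below 0. The 5 ribosomal protein genes had a median of -0.019 with 2 above 0, 0 called and 1 called lower with the block. Their levels differed widely between the sets. Rps23, Rpl9, Rpl21 and Rpl6 were at means of 5.96, 18.4, 12.1 and 192 CPM in control 2. In control 1 they were at 1070, 2020, 2240 and 3080 CPM. The set 2 counts of these genes are therefore uncertain, and the cause was not tested. The 6 sterol synthesis genes had a median of 0.034 with 0 called, and ran from Idi1 (-0.45) to Mvk (0.13). The intestinal identity and transport list had 1 of 7 members above 0 and a median of -0.298, and the claudins 1 of 4 above 0 and a median of -0.125. The small lists gave -0.122 for the 2 EGF receptor ligands, -0.21 for the 1 oligoadenylate synthetase (Oasl1, called lower with the block only) and 0.065 for the 2 clade B serpins, with 0 called. In the intestinal list, Muc3, Slc5a1 and Msi1 were called lower and Ppargc1a higher, and the block added Abcb1a among those called lower. Among the claudins Cldn15 was called lower, while Cldn4 (-0.19), Cldn3 (-0.06) and Cldn12 (0.15) were not called. Of 9 genes of adhesion and epithelial structure, 7 were above 0 with a median of 0.175, and Map3k1 (0.22), Rac1 and Il6st (0.32) were called higher. With the block 5 of the 9 were called higher and 1, Itga2, lower. Each of the calls of Setd1b, Nsd1, Bcl7a, Zfp131, Zfp316, Cxcl15, Map3k1, Rac1, Il6st, Tbx3 and Msi1 was lost when one or another single library was left out.

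**Figure D4:**
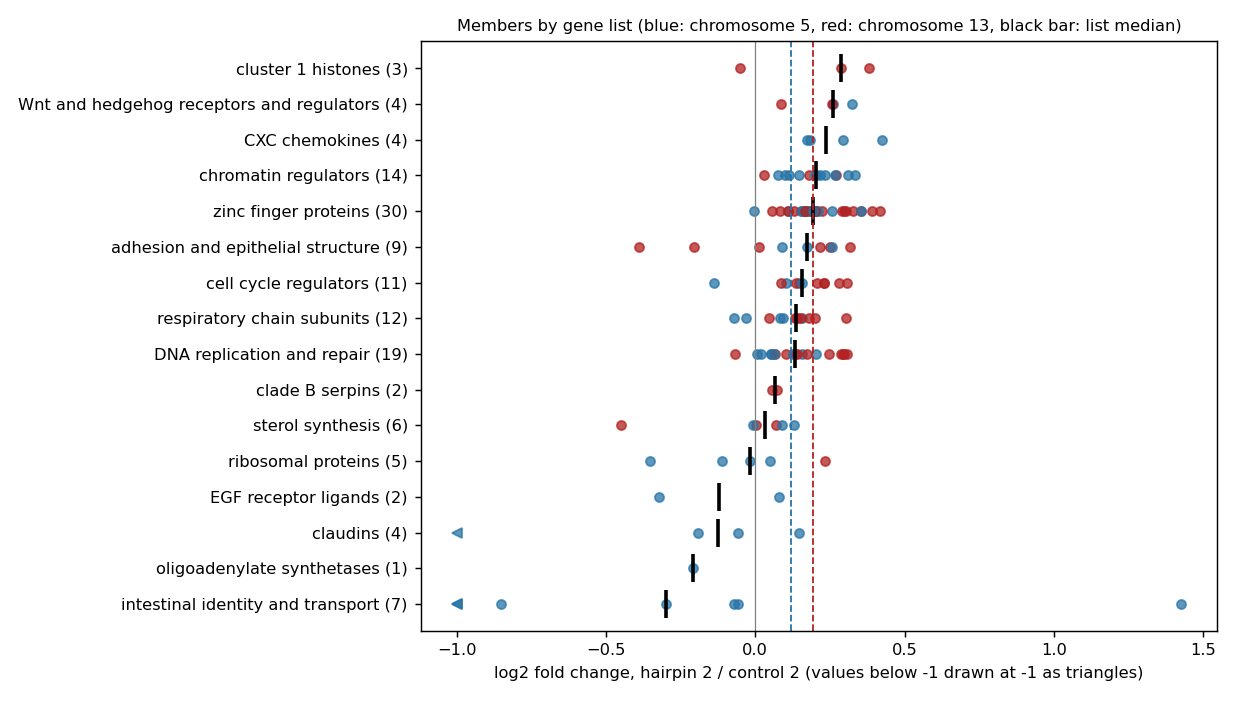
Log2 fold change with hairpin 2 against control 2 (horizontal axis) of the members of each gene list (rows, number of members in brackets). Points are genes (blue chromosome 5, red chromosome 13), black bars are list medians and dashed lines the medians of all members of each chromosome (0.121 and 0.195), with values below -1 drawn at -1. Chromatin regulators and zinc finger genes sit around the dashed lines, and the intestinal genes lie mostly below 0.

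Members called below their own chromosome ranged from -4.51 to -0.21 against it, and 10 of the 26 were at -1 or lower. Among these 10, Muc3, Cds1, Slc5a1, Fgfbp1, Shh and Rhof had hairpin 2 means below 5 CPM (0.539 to 4.31). They reached the level limit only through control 2, so the limit had a part in which large falls are listed. Of the 26, 0 had a fold change above 0 against all genes, 14 were called lower against all genes and 12 were not. Those 12 ran from Naip2 (-0.42) to Gdi2 (-0.02) against all genes and lay further below their chromosome, as with Gdi2 (-0.21 against chromosome 13) and Golm1 (-0.09 against all genes and -0.28 against its chromosome), the gene of a Golgi membrane protein. Gdi2, Pitrm1, Gtpbp4 and Pfkp, 4 of the 13 members called below chromosome 13, lie in its first 10 Mb, where the stretch itself stood at 0.009, so that Gdi2 is level with its own stretch. Itga2, a subunit of a collagen receptor, was at 34.3, 43.7, 40.7 and 39.8 CPM in control 2 and at 30.3, 33.7, 34.2 and 22.6 CPM in hairpin 2. Its groups did not overlap, and it gave -0.39 against all genes, called with the block only, and -0.58 against chromosome 13, called.

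Members that fell included transport, junction and mucin genes of enterocytes, although Slc9a3, another brush-border transporter gene, rose and is described below. Slc5a1 was at 9.40, 10.8, 10.6 and 13 CPM in control 2 and at 2.05, 1.97, 3.46 and 3.90 CPM in hairpin 2 (log2 fold change -2.02 ± 0.22). Cdhr2 was at 28.6, 29.8, 31.3 and 50 CPM in control 2 and at 10.5, 10.2, 11.1 and 13.1 CPM in hairpin 2 (-1.65 ± 0.19). All hairpin libraries were below all control libraries for both, and these are the genes whose CpG-poor promoters are printed above. Cldn15, which forms sodium-permeable pores between enterocytes, fell from 18.0 ± 3.60 to 6.56 ± 1.95 CPM (SD, n = 4 each), a fold change of -1.43 ± 0.21. Muc3, a membrane-bound mucin gene, was at 8.13, 8.97, 6.68 and 22.6 CPM in control 2 and at 0.357, 0.671, 0.216 and 0.913 CPM in hairpin 2 (-4.39 ± 0.52), but its counts are uncertain because of near-identical relatives.

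Other members that fell have roles in lipid synthesis, sugar metabolism and signalling. Cds1, which makes a precursor of phosphatidylinositol, was at 11.2, 9.92, 9.66 and 12.8 CPM in control 2 and at 2.32, 2.21, 2.60 and 2.24 CPM in hairpin 2 (-2.23 ± 0.14). Plac8, a gene of a small cysteine-rich protein, was at 41.8, 48.1, 42.9 and 62.7 CPM in control 2 and at 12.6, 12.4, 15.7 and 13.2 CPM in hairpin 2 (-1.88 ± 0.14). Pfkp, which encodes a phosphofructokinase of glycolysis, was at 185, 181, 202 and 221 CPM in control 2 and at 42.2, 43.7, 49.7 and 78.1 CPM in hairpin 2 (-1.89 ± 0.18). None of these groups overlapped. Fgfbp1, whose protein releases fibroblast growth factors from the matrix, fell from 9.10 ± 1.91 to 3.55 ± 0.40 CPM (SD, n = 4 each). Shh, a hedgehog ligand gene, fell from 9.30 ± 1.16 to 3.92 ± 1.11 CPM. Rhof (-0.99), a GTPase gene, and Gcnt2 (-0.53), a glycosyltransferase gene, were also called lower, and both calls were lost when single libraries were left out. The summed epithelial markers given above were lower in the same hairpin 2 libraries, and their part in these falls was not tested.

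Other members of the intestinal list were not called without the block. Cdx2, a transcription factor gene that specifies intestine, was at 212, 221, 209 and 220 CPM in control 2 and at 198, 192, 198 and 242 CPM in hairpin 2 (-0.06 ± 0.08). Abcb1a, the gene of an efflux pump, gave -0.85 ± 0.41, with control 2 replicate 4 at 125 CPM and the other controls at 47.7 to 59.1 CPM. The groups overlapped for both genes. With the block Abcb1a was called lower and Cdx2 was not called.

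Members called above their own chromosome were 6. This count fell to 2 without control 2 replicate 2, hairpin 2 replicate 1 or hairpin 2 replicate 3, and was 10 without hairpin 2 replicate 4. Shares over all genes are not given for these fits. Slc9a3, which encodes the brush-border sodium-proton exchanger, was at 197, 185, 198 and 179 CPM in control 2 and at 263, 281, 263 and 266 CPM in hairpin 2 (0.50 ± 0.05, and 0.31 against chromosome 13). Foxq1, a forkhead transcription factor gene, was at 88.2, 71.0, 81.2 and 68.2 CPM in control 2 and at 110, 108, 119 and 121 CPM in hairpin 2 (0.57 ± 0.09). Ppargc1a, a coactivator gene of mitochondrial biogenesis, was at 4.91, 2.76, 4.70 and 6.02 CPM in control 2 and at 12.8, 11.3, 13 and 12.9 CPM in hairpin 2 (1.43 ± 0.19). In all 3 the groups did not overlap. Ppargc1a reached the limit of 5 CPM only through hairpin 2, its control 2 mean being 4.59 CPM. Tesc, a calcium-binding protein gene, stood at 157 ± 13.4 and 208 ± 8.19 CPM, Mcur1, a regulator of mitochondrial calcium uptake, at 10.1 ± 0.53 and 14.6 ± 0.69 CPM, and the growth factor receptor gene Pdgfra at 9.95 ± 1.00 and 14.5 ± 0.75 CPM (SD, n = 4 each). Tesc, Mcur1 and Pdgfra lay near the limit against their own chromosome (adjusted p = 0.033, 0.041 and 0.038, edgeR's quasi-likelihood test). Foxc1, a forkhead gene near Foxq1, had a larger fold change than Foxq1 (0.63 ± 0.15) but was not called against chromosome 13.

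**Figure D5:**
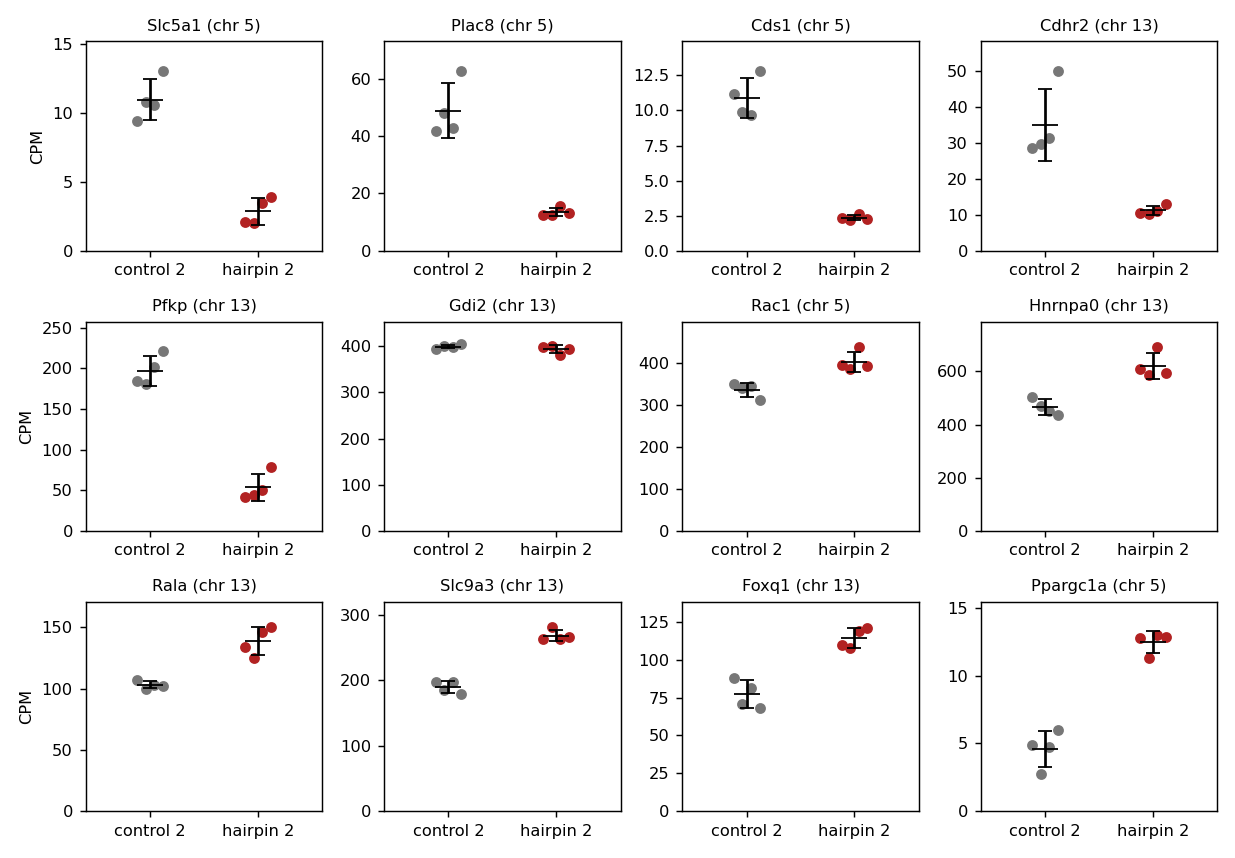
CPM (vertical axes, from 0) of 12 members in each library of control 2 (grey) and hairpin 2 (red), with mean and SD. Slc5a1, Plac8, Cds1, Cdhr2 and Pfkp lie lower in every hairpin library, Gdi2 overlaps at about 400 CPM, and Rac1, Hnrnpa0, Rala, Slc9a3, Foxq1 and Ppargc1a lie higher in every hairpin library, the last 3 being those also called above their own chromosome.

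Promoters of the members called below their chromosome held fewer CG dinucleotides than those of the members that did not depart, with medians of 13.5 and 24. The 5 matched of the 6 members above had a median of 25, and 3 of them (60.0%) had an observed over expected ratio of at least 0.6. Ppargc1a, with 5 CG dinucleotides and a ratio of 0.28, was not among these 3. A promoter was matched for 24 of the 26 members below their chromosome, and 11 of these (45.8%) had an observed over expected CpG ratio of at least 0.6. Among the 9 matched members more than 2-fold below, 2 reached this ratio (22.2%) and the median was 0.372. Cds1, with a ratio of 0.99 and 46 CG dinucleotides, is one of the exceptions, and Pfkp, with 0.68, is the other. Of 892 matched members that did not depart, 743 reached it (83.3%, median 0.826), as did 78.9% of the remaining autosomes and 62.5% of 16 members in the first 10 Mb of chromosome 13. These shares are a description, since the groups were cut by the fold change.

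A pair of short motifs was searched on both strands, the HNF4 element CAAAGTCCA and the TATA box TATAAA, which do not overlap in their letters. The HNF4 element was in 0 of the 24 promoters below their chromosome, in 4 of the 892 other members (0.448%) and in 0.479% of all 32544 promoters of this length. TATAAA was in 2 of the 24 (8.33%), in 4.71% of the other members and in 6.54% of the matched genes of the remaining autosomes. It was in 13.6% of all promoters, which were not limited by level. An absent match says only that these letters are not in the window.

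In set 1, which was not used to choose the chromosomes, chromosome 5 showed no displacement and chromosome 13 a smaller one. On chromosome 5 the control 1 libraries had medians of -0.020, -0.014 and 0.014, and those of hairpin 1 had 0.023, 0.005 and 0.005. The groups overlapped and the means differed by 0.018 (exact two-sided permutation test over 20 labelings, p = 0.3, adjusted over the 2 chromosomes 0.3). For chromosome 13, control 1 gave -0.025, 0.072 and -0.008, and hairpin 1 gave 0.095, 0.165 and 0.133. These groups did not overlap, and the means differed by 0.118 (exact p = 0.1, which is the smallest that 3 against 3 can give, adjusted 0.2). Neither difference could pass 0.05 by this test.

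The other autosomes of set 1 moved as well. Control and hairpin libraries did not overlap on 7 of 17, and the differences ran from -0.183 on chromosome 14 to 0.243 on chromosome 12. Without these chromosomes, on which hairpin 1 replicate 1 stands apart, they still ran from -0.105 to 0.133, so that chromosome 13 lay within their range. Fold changes in set 1 also followed GC content, with medians of 0.230, 0.105, -0.055 and -0.177 from the lowest to the highest class on the remaining autosomes. Members on chromosome 13 numbered 151, 109, 70 and 34 in these classes. Their medians were 0.214, 0.113, 0.090 and -0.049. With a trend over GC content, transcript length and level removed, the chromosome 13 displacement in the fit of set 1, taken as the median over genes, went from 0.105 to 0.012.

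Gene by gene, 1054 of the members were tested in set 1, and 0 were called, beside 0% of the 13540 genes tested there. At an unadjusted p below 0.05 by edgeR there were 49 of the 1054 members, beside 497 of 8880 genes on the remaining autosomes. The DESeq2 Wald test called 1 member, Rasa4, lower. The median standard error was 0.264 on chromosome 5 and 0.280 on chromosome 13, against 0.081 and 0.085 in set 2. Members with hairpin 1 wholly above control 1 were 45 on chromosome 5 and 38 on chromosome 13, beside 7.32% of all genes, and wholly below were 52 and 8, beside 6.39%. Members above 0 were 54.8% on chromosome 5 and 68.9% on chromosome 13, against 53.7% of the remaining autosomes. In the first 10 Mb of chromosome 13 the median log2 fold change with hairpin 1 was 0.092, and beyond it 0.146. The remaining autosomes stood at 0.038. Per library and less the remaining autosomes, the first stretch gave 0.436, -0.047 and -0.074 in hairpin 1 replicates 1 to 3. The control 1 libraries ran from -0.046 to 0.043 there, so only replicate 1 lay above them. Beyond 10 Mb hairpin 1 gave 0.088, 0.178 and 0.157, against -0.027 to 0.074 in control 1.

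The 26 members below their chromosome with hairpin 2 did not share a direction with hairpin 1. Of these, 11 were below 0 and 15 above, with a median of 0.118 and a range of -0.50 to 1.71. Slc5a1 was at 55.4, 53.8 and 41.9 CPM in control 1 and at 1.67, 106 and 73.3 CPM in hairpin 1, the low value being replicate 1. Cdhr2 was at 145, 56.3 and 115 CPM in control 1 and at 282, 65.7 and 72.1 CPM in hairpin 1. Both genes thus varied within hairpin 1 over a wider range than between the groups of set 2. Of the 6 members above their chromosome, 5 were tested in set 1, all 5 above 0 (0.28 to 0.63) and none called. Tesc was barely detected there, at means of 0.916 CPM in control 1 and 1.40 CPM in hairpin 1 (0.60 ± 1.05, SE). Slc9a3 was at 106, 138 and 71.3 CPM in control 1 and at 269, 108 and 109 CPM in hairpin 1, the high value being replicate 1. Foxq1 was at 29.2, 28.2 and 37.3 CPM in control 1 and at 51.8, 41.8 and 50.4 CPM in hairpin 1, and Mcur1 at 18.3, 26.3 and 28.2 CPM and at 36.2, 36.3 and 37.6 CPM. These were the 2 of the 5 whose groups did not overlap.

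Set side by side, the 4 groups took different levels on these chromosomes. Relative to the mean of control 1, and less the remaining autosomes, chromosome 5 stood at -0.192 to -0.147 in the control 2 libraries and at -0.052 to -0.026 in hairpin 2. Chromosome 13 stood at -0.157 to -0.075 in control 2 and at 0.075 to 0.128 in hairpin 2. Hairpin 2 was thus nearer to control 1 than control 2 was on chromosome 5, and on the other side of it on chromosome 13. A difference between the sets cannot be told apart from a difference between their clones. Other chromosomes were also apart, chromosome 12 being at 0.517 to 0.590 in control 2 and 0.668 to 0.741 in hairpin 2. These levels are therefore given without a test.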

How the data were processed

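Per the labels' protocols, libraries were stranded and made from poly(A) RNA. What the authors deposited is a table of raw read counts by gene for each library. The submitters' processing notes name bcl2fastq 2.20, FastQC, STAR, featureCounts, DESeq2 and GRCm38, and further settings are not given in the sources. GENCODE M21 matched 17471 of 17490 genes listed in set 2 and 55240 of 55421 in set 1.

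The chromosomes, members and gene lists were chosen with earlier results of these data known. Each set was fitted alone, over all genes that passed filterByExpr, with edgeR 4.0.16 (R 4.3.3), TMM factors, the quasi-likelihood test and Benjamini-Hochberg adjustment at 0.05. Printed CPM use TMM-scaled totals, and log values add 0.5 to the count. Chromosome medians used genes of at least 5 CPM in windows of 10 Mb by gene start. Trends were removed with mgcv 1.9.3. The edgeR fits were also run on simulated data whose chromosome 13 shift was larger than the displacements described here. That run does not show how the fits perform at the sizes seen here. The named genes were, per chromosome, up to 8 called with the largest rise and 8 with the largest fall without overlap, the 5 of highest level, and up to 4 per list with the smallest p. Other genes, among them those of the first 10 Mb of chromosome 13 and those called against their own chromosome, were named after their values were seen. Muc3 was always to be marked uncertain. Some genes meeting these rules are not described here.

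Replicate numbers were taken to pair the libraries in set 2, where deviations from the group means correlated at 0.225, 0.140, 0.216 and 0.575 (limit 0.1), but not in set 1 (0.212, -0.028 and 0.256). This rests on the data and not on the labels. Alternatives included the Wald test and size factors of DESeq2 1.42.0, no filter, other level limits and windows, the replicate block, and leaving out libraries. Totals differ by under 3 times, and intervals given are spreads between libraries.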

Additional observations from a re-analysis of the deposited data

Results flagged for a closer look

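Among 182 groups of 4 libraries examined for the chromosome medians and the named genes, 19 held 1 library far from the other 3, where chance gives about 1 in 20. Replicate 4 was that library in 7 of the control 2 and 6 of the hairpin 2 groups. In control 2 replicate 4, Cdhr2 (50 CPM), Muc3 (22.6 CPM), Areg (16.6 CPM), Oasl1 (43.7 CPM), Mvk (41.2 CPM), Cxcl1 (35.7 CPM) and Fzd1 (57.5 CPM) stood apart. In hairpin 2 replicate 4 these were Hmgcs1 (271 CPM), Zfp131 (92.9 CPM), Habp4 (30.9 CPM), Cxcl1 (59.4 CPM), Zfp12 (54.6 CPM) and Fzd1 (84.3 CPM). Single values also stood apart for Ccnh (31.8 CPM) and Rac1 (439 CPM) in hairpin 2 replicate 3, for Slc9a3 (281 CPM), Mcur1 (13.6 CPM) and Ppargc1a (11.3 CPM) in hairpin 2 replicate 2, and for Zfp68 (56.0 CPM) in control 2 replicate 2. No chromosome median of a library was among them.

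The effects of the 2 hairpins differed for 2 of 1079 members, beside 62 of 15043 genes tested (0.412%, edgeR's quasi-likelihood test of the difference). Fgfbp1 was lower with hairpin 2 by more than with hairpin 1 (difference -1.34 on the log2 scale, adjusted p = 0.014). Its fold change was -1.38 with hairpin 2 and -0.04 with hairpin 1. Bmp6, a growth factor gene on chromosome 13, differed the other way (2.25, adjusted p = 0.043), with 0.37 for hairpin 2 and -1.89 for hairpin 1, where its level was at most 1.86 CPM. The contrast that chose the chromosomes is part of both differences.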

How the results depend on the processing

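The set 2 displacements kept their direction under each alternative run. With the mean over genes within 1 log2 unit of the median in place of the median, that of chromosome 5 went from 0.120 to 0.126. Leaving out 1 library gave 0.118 to 0.127 on chromosome 5, 0.189 to 0.197 on chromosome 13 and 0.194 to 0.207 on chromosome 13 beyond 10 Mb. Over its first 10 Mb the value of 0.009 became -0.008 with the replicate block, -0.021 with the trend over GC content, length and level removed, 0.025 without both replicate 4 libraries, 0.027 without Pfkp and Idi1, and -0.024 to 0.024 with 1 library left out, all chosen after seeing the data.

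In set 1 the chromosome 5 value of -0.001 became 0.006 with the replicate block, 0.009 at a mean of at least 1 CPM, 0.006 with the remaining autosomes taken without chromosomes 12 and 14, 0.024 with the trend removed, and -0.010 to 0.030 with 1 library left out. Chromosome 13 gave 0.076 to 0.146 with 1 library left out.

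Of members, 115 were called with hairpin 2, 228 by the DESeq2 Wald test, 447 with the replicate block, 374 without both replicate 4 libraries and 36 to 210 with 1 library left out. All 115 were among those of the first 3 of these alternatives. In set 1, DESeq2 called 1 member, Rasa4, and leaving out hairpin 1 replicate 1 gave 1, Atg9b, so that the range was 0 to 1. The 32 calls against the own chromosome became 156 with the block, 122 without both replicate 4 libraries and 17 to 50 with 1 library left out. Of all genes tested, 6.05% were called in the main fit and 20.4% with the block. Against the own chromosome these shares were 4.74% and 16.4%. Shares for the other fits are not given here, so their counts are not read as results about the members. The cause of the changes in these counts was not tested. The block changed the sign or lost the call of none of the 38 called among 88 named genes, and 24 uncalled ones gained a call.

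Signs changed for uncalled genes only. Without both replicate 4 libraries Hist1h4i went to 0.044, Cldn3 to 0.021, Rpl21 to -0.088, Btc to -0.134 and Cxcl1 to -0.107, and with the block Hmgcs1 went to -0.046. With single libraries left out, Hist1h4i ran from -0.208 to 0.134, Hmgcs1 from -0.086 to 0.193, Serpinb1a from -0.062 to 0.179, Areg from -0.824 to 0.067, Rpl21 from -0.116 to 0.157, Btc from -0.129 to 0.179 and Cxcl1 from -0.177 to 0.308. Displacements near 0.12 lie close to the error of 1 gene, and 18 of the 38 called named genes kept the call in each fit with 1 library left out.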
